A study of Mus musculus with 21 samples.

Results

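The guanylate-binding proteins Gbp2, Gbp3, Gbp4, Gbp5, Gbp6, Gbp7, Gbp8 and Gbp9 were followed through RNA sequencing of sorted striatal microglia. The 8 genes were chosen by name, through their Ensembl identifiers, from the 55487 genes of the deposited count table, and all 8 passed the filter on low counts that left 14741 genes for testing. The study sequenced polyadenylated RNA of microglia, the resident macrophages of the brain, from male mice aged 8 to 10 weeks, sorted as live, CD11b+, CD45-low and P2RY12+ cells. The mice were offspring of dams that had maternal immune activation (MIA) or of control dams, and the labels used here do not name the agent given to the dams. As adults they received lipopolysaccharide (LPS, a cell wall component of gram-negative bacteria) at 4500 endotoxin units per gram of body weight, or saline, into the peritoneum 18 hours before the cells were taken. No transgene or deletion is named in the labels. The comparisons rest on 3 MIA LPS, 5 control LPS, 5 MIA saline and 6 control saline libraries of sequencing batch 1. MIA LPS replicate 4, the only library of batch 2, and MIA saline replicate 6, which the submitters titled excluded, enter no group value below.

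Guanylate-binding proteins are large GTPases of the dynamin superfamily that interferons induce in macrophages and many other cells. The proteins gather on the vacuoles of intracellular parasites and on the surface of cytosolic bacteria, and in mouse macrophages they help cytosolic LPS to reach caspase-11. Interferons are classically known to drive transcription of the family through DNA elements called GAS and ISRE, the second of which interferon regulatory factors bind. The members differ in their tails: mouse Gbp2 and Gbp5 carry a motif for prenylation, a lipid anchor that attaches the protein to membranes.

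The 8 genes lie in 2 clusters of the mouse genome. In the GENCODE M21 annotation of GRCm38, Gbp5 (chr3:142493978-142522344), Gbp7 (chr3:142530342-142550149), Gbp3 (chr3:142560026-142573209) and Gbp2 (chr3:142620602-142638008) lie on the plus strand of chromosome 3. Gbp8 (chr5:105014150-105139540), Gbp9 (chr5:105077630-105139539), Gbp4 (chr5:105115767-105139586) and Gbp6 (chr5:105270702-105293698) lie on the minus strand of chromosome 5. All 8 are annotated as protein coding. The exons of Gbp4, Gbp8 and Gbp9 overlap one another on the same strand by 60 to 61 bases. The sources used here do not say how reads of overlapping or copied genes were divided, so the sequence shared with other genes was measured. Gbp6 shared 64.5% of the 100-base stretches of its transcripts with another gene, chiefly Gm43302 (59.0%) and Gbp10 (36.3%), and its values are therefore uncertain. Gbp7 shared 10.0%, chiefly with the pseudogene Gm43802 that lies inside it, and Gbp8 shared 4.39%. The other members shared less, from 0% in Gbp2 to 1.65% in Gbp9. In stretches of 50 bases the shares were higher, at 70.7% for Gbp6, 18.1% for Gbp8, 12.7% for Gbp7, 8.05% for Gbp9, 7.78% for Gbp4 and at most 3.75% for the rest, and the read length is not given in the sources used here.

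The promoters of the chromosome 3 cluster are shown because 2 elements of interferon control can be read in them. RefSeq promoters (GRCm38.p6, 250 bases before to 50 bases after the start of transcription) were at hand for 4 of the 8 members, with 2 entries for Gbp3, and for Gbp2b. No entry was at hand for Gbp4, Gbp6, Gbp8 or Gbp9 on chromosome 5, so the promoters of the 2 clusters cannot be compared. The stretches run 5′ to 3′ on the plus strand, with letters that match an element in capitals. They cover chr3:142496754-142496899 for Gbp5, chr3:142530156-142530306 for Gbp7, chr3:142559864-142560014 for Gbp3, chr3:142620594-142620623 for Gbp2 and chr3:142594667-142594815 for Gbp2b.
Gbp5: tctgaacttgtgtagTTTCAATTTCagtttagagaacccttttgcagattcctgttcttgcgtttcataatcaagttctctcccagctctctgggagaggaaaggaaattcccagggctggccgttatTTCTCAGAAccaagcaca
Gbp7: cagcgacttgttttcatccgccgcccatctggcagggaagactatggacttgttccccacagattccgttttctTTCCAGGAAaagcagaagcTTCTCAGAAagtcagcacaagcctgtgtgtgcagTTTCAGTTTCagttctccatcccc
Gbp3: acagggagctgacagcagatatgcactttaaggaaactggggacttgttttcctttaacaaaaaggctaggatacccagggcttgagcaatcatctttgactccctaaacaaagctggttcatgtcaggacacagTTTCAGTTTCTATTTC
Gbp2: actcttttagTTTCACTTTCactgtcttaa
Gbp2b: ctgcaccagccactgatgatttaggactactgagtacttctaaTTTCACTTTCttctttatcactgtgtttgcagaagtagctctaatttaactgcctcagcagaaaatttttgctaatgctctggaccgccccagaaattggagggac

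The ISRE core was searched on both strands as GAAA, 2 bases of any kind and GAAA again, which in reverse reads TTTC, 2 bases and TTTC, and the GAS element as TTCNNNGAA, which reads the same on both strands. No searched GAS letters overlapped an ISRE match. All 4 members with an entry held an ISRE core, each in the reverse orientation, as did Gbp2b. Counted from the RefSeq start of transcription, with minus for bases before it, the matches began at -165 in Gbp5, -53 in Gbp7, -59 in Gbp2 and -137 in Gbp2b. GENCODE starts Gbp2 upstream of the RefSeq entry, at 142620602, so all 10 bases of its match lie inside an annotated exon, while the other matches lie in none. The Gbp5 matches likewise fall after the GENCODE start of that gene. Gbp3 held 2 overlapping matches, at -45 and -39, in one of its entries and none in the other. GAS letters were found in Gbp5 at -245, outside the printed stretch, and at -52, and in Gbp7 at -106 and -87. Of 27025 mouse genes with a RefSeq promoter of 300 bases, 3.99% held the ISRE core and 9.55% the GAS letters in at least 1 entry. A match describes the letters and is not a measured binding site.

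After LPS, all members but Gbp8 were called higher in MIA offspring and all 8 members were called higher in control offspring, by very unequal amounts. With the quasi-likelihood test of edgeR and a threshold of 0.05 on the Benjamini-Hochberg adjusted p, 7 of 8 members were called higher in MIA offspring, where 20.8% of all genes tested were called higher, and 8 of 8 in control offspring, where 23.3% were. Gbp4 and Gbp8, scarce after saline, passed the filter on low counts through their LPS libraries, so their calls are not independent of that filter. No member was called lower, and calls in either direction made up 39.1% of all genes in MIA offspring and 44.6% in control offspring. The median log2 fold change over the members was 2.29 in MIA offspring and 2.44 in control offspring, beside 0.018 in MIA offspring and -0.0032 in control offspring over all genes tested. The libraries of the LPS and saline groups did not overlap for 6 members, Gbp2 to Gbp7, in either maternal group. Over all genes, 18.5% were higher without overlap in MIA offspring and 15.1% in control offspring. Levels are counts per 1e+06 counts (CPM) after TMM scaling, a correction for library composition. In sorted cells measured in bulk, a change in the kinds of cells collected and a change of RNA per cell cannot be told apart.

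**Figure D1:**
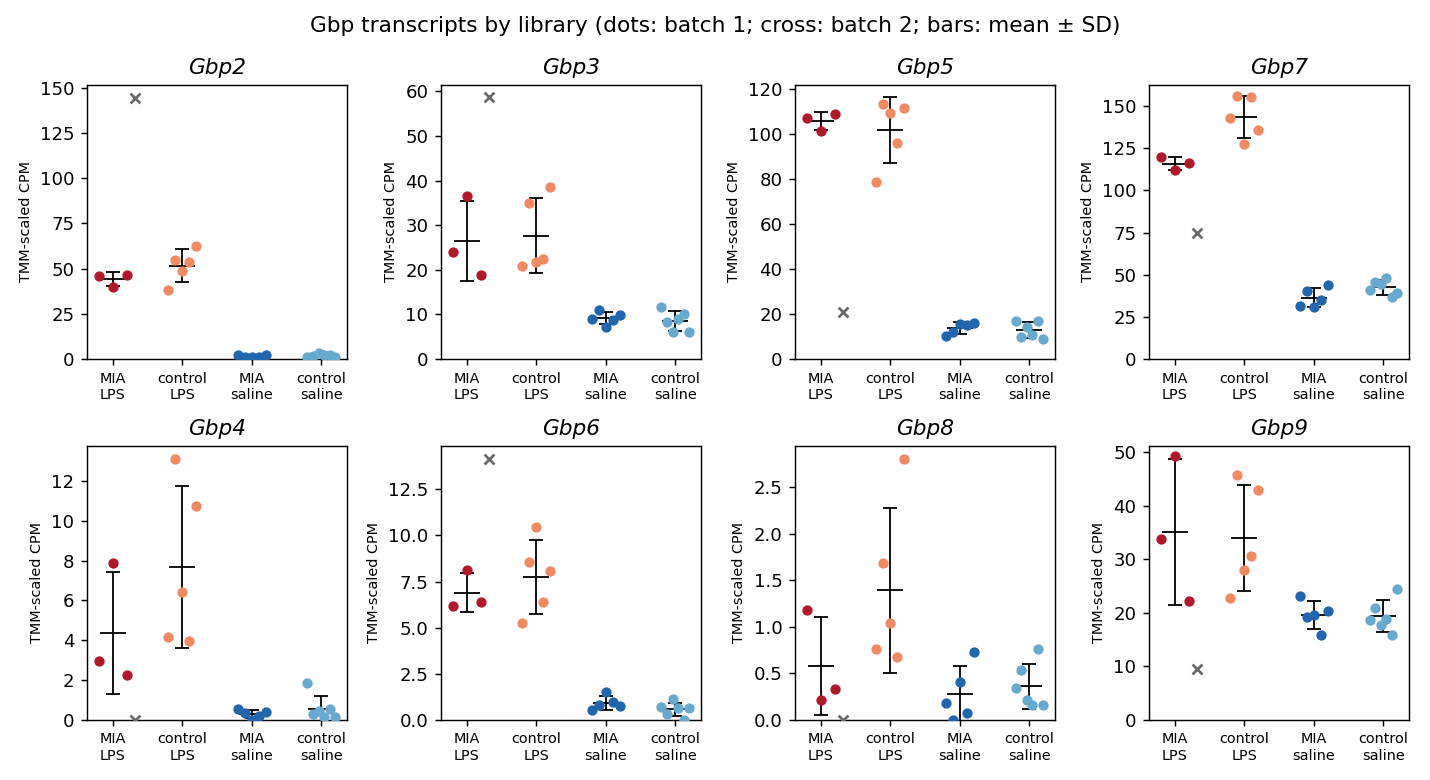
TMM-scaled CPM of each Gbp gene (y axis, from 0, a separate scale for each gene) in every library, by group (x axis); dots are batch 1 libraries, the cross is the batch 2 MIA LPS library, and bars are mean ± SD over batch 1. All LPS dots of Gbp2 to Gbp7 lie above all saline dots of the same maternal group, while those of Gbp8 and Gbp9 overlap them.

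Gbp2, which coats and disrupts parasite vacuoles in mouse cells, changed most. Its level was 46.1, 39.9 and 46.6 CPM in the 3 MIA LPS libraries, against 2.02, 1.21, 1.01, 1.38 and 2.33 CPM in the 5 MIA saline libraries. In control offspring it was 38.0, 54.7, 48.5, 53.5 and 62.7 CPM after LPS, against a lowest, median and highest value of 0.852, 1.81 and 3.54 CPM after saline. The lowest LPS library thus stood far above the highest saline library on both sides. The log2 fold change was 4.79 ± 0.29 (SE, edgeR adjusted p = 5.93e-12) in MIA offspring and 4.74 ± 0.25 (edgeR adjusted p = 2.84e-13) in control offspring, which is 27.7-fold and 26.6-fold. In control offspring this ranked in the top 1.03% of all genes tested by log2 fold change.

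Gbp5, which promotes assembly of the NLRP3 inflammasome in mouse macrophages, was the third most abundant member per length after LPS. It stood at 107, 101 and 109 CPM in MIA LPS libraries, against 10.2, 11.9, 15.7, 15.2 and 16.0 CPM in MIA saline libraries. In control offspring it stood at 78.4, 113, 109, 95.8 and 112 CPM after LPS, against 8.75, 12.5 and 16.9 CPM (lowest, median, highest) after saline. Control LPS replicate 1 was the lowest of the 8 LPS libraries, as it was for Gbp2. Gbp5 rose by a log2 fold change of 2.93 ± 0.19 (edgeR adjusted p = 6.35e-12) in MIA offspring and 2.97 ± 0.17 (edgeR adjusted p = 2.30e-13) in control offspring.

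Gbp7, which helps to assemble the NADPH oxidase in mouse macrophages, had the highest level per length of the family in every group. Its libraries held 119.6, 112 and 116 CPM after LPS in MIA offspring, against 31.5, 40.6, 31.1, 34.9 and 44.0 CPM after saline. Control offspring held 143, 156, 127, 155 and 136 CPM after LPS, against 36.7, 42.7 and 48.3 CPM (lowest, median, highest) after saline. Replicates of Gbp7 were close, with a coefficient of variation of 3.31% in MIA LPS, 8.70% in control LPS, 15.6% in MIA saline and 10.1% in control saline. For Gbp7 the log2 fold change was 1.67 ± 0.13 (edgeR adjusted p = 1.84e-10) in MIA offspring and 1.76 ± 0.11 (edgeR adjusted p = 2.31e-12) in control offspring.

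Gbp3, which in mice also moves to parasite vacuoles, completed the chromosome 3 set. Its level was 24.0, 36.5 and 19.0 CPM in MIA LPS libraries, against 8.94, 11.0, 7.29, 8.67 and 9.79 CPM in MIA saline libraries. In control offspring the values were 20.8, 35.0, 21.7, 22.4 and 38.5 CPM after LPS, against 5.98, 8.67 and 11.6 CPM (lowest, median, highest) after saline. Within each LPS group some libraries stood apart, namely MIA LPS replicate 2 and control LPS replicates 2 and 5, well above the other LPS libraries (at most 24.0 CPM). For Gbp3 the log2 fold change was 1.54 ± 0.24 (edgeR adjusted p = 1.18e-05) in MIA offspring and 1.69 ± 0.20 (edgeR adjusted p = 1.86e-07) in control offspring.

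On chromosome 5, Gbp4, described in mouse cells as an inhibitor of IRF7 activation, was scarce after saline. It had 2.96, 7.88 and 2.25 CPM in MIA LPS libraries, against 0.526, 0.321, 0, 0.207 and 0.400 CPM in MIA saline libraries. In control offspring it had 4.17, 13.1, 6.44, 3.95 and 10.7 CPM after LPS, against 0.154, 0.342 and 1.86 CPM (lowest, median, highest) after saline. The highest LPS values were those of MIA LPS replicate 2 and control LPS replicates 2 and 5, the same libraries as for Gbp3. Gbp4 rose by a log2 fold change of 3.91 ± 0.71 (edgeR adjusted p = 1.11e-04) in MIA offspring and 3.68 ± 0.55 (edgeR adjusted p = 9.24e-06) in control offspring. It became 3.16 without MIA LPS replicate 2 in MIA offspring and 4.58 without control saline replicate 1 in control offspring, still called.

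Gbp6, another protein of parasite vacuoles in mice, was measured at 6.17, 8.10 and 6.41 CPM after LPS in MIA offspring, against 0.526, 0.803, 1.49, 0.964 and 0.733 CPM after saline. Control offspring had 5.25, 8.54, 10.5, 6.37 and 8.09 CPM after LPS, against 0, 0.617 and 1.11 CPM (lowest, median, highest) after saline. Every LPS library was above every saline library in both maternal groups. Gbp6 rose by a log2 fold change of 2.91 ± 0.43 (edgeR adjusted p = 4.63e-06) in MIA offspring and 3.79 ± 0.39 (edgeR adjusted p = 1.14e-08) in control offspring. Of its 21 deposited values 9 were not whole numbers, as happens when reads are divided among genes. Gbp4 and Gbp9 had 7 such values each.

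Gbp9 responded least among the well expressed members. It stood at 33.8, 49.2 and 22.2 CPM in MIA LPS libraries, against 23.1, 19.2, 19.5, 15.9 and 20.4 CPM in MIA saline libraries. In control offspring it stood at 22.8, 45.8, 28.0, 30.6 and 43.0 CPM after LPS, against 15.8, 18.7 and 24.5 CPM (lowest, median, highest) after saline. The groups overlapped, since MIA LPS replicate 3 lay below MIA saline replicate 1 and control LPS replicate 1 below control saline replicate 6. Gbp9 rose by a log2 fold change of 0.84 ± 0.22 (edgeR adjusted p = 3.42e-03) in MIA offspring and 0.81 ± 0.18 (edgeR adjusted p = 7.61e-04) in control offspring. Without MIA LPS replicate 2 the MIA value was 0.51 and no longer called (edgeR adjusted p = 0.0668).

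Gbp8 was close to the limit of detection. It had 14, 3 and 5 counts in the 3 MIA LPS libraries, which is 1.18, 0.217 and 0.330 CPM, against 0.175, 0, 0.405, 0.0688 and 0.733 CPM in MIA saline libraries. In control offspring it had 0.758, 1.68, 1.04, 0.670 and 2.80 CPM after LPS, against 0.154, 0.274 and 0.758 CPM (lowest, median, highest) after saline. LPS and saline libraries overlapped in both maternal groups. For Gbp8 the log2 fold change was 0.97 ± 0.83 in MIA offspring, which was not called (edgeR adjusted p = 0.380, 95% interval -0.73 to 2.67), and 1.90 ± 0.64 (edgeR adjusted p = 0.0184) in control offspring. The control call was lost without control LPS replicate 5 (1.49, edgeR adjusted p = 0.0789). It was also lost with the second number of the ID label, which most LPS and saline libraries share, as a block (2.09, edgeR adjusted p = 0.0525). Control LPS replicate 1 and control saline replicate 2 share that number with no library of the other treatment, so that fit compared fewer libraries. Without MIA LPS replicate 1 the MIA value was -0.045.

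**Figure D2:**
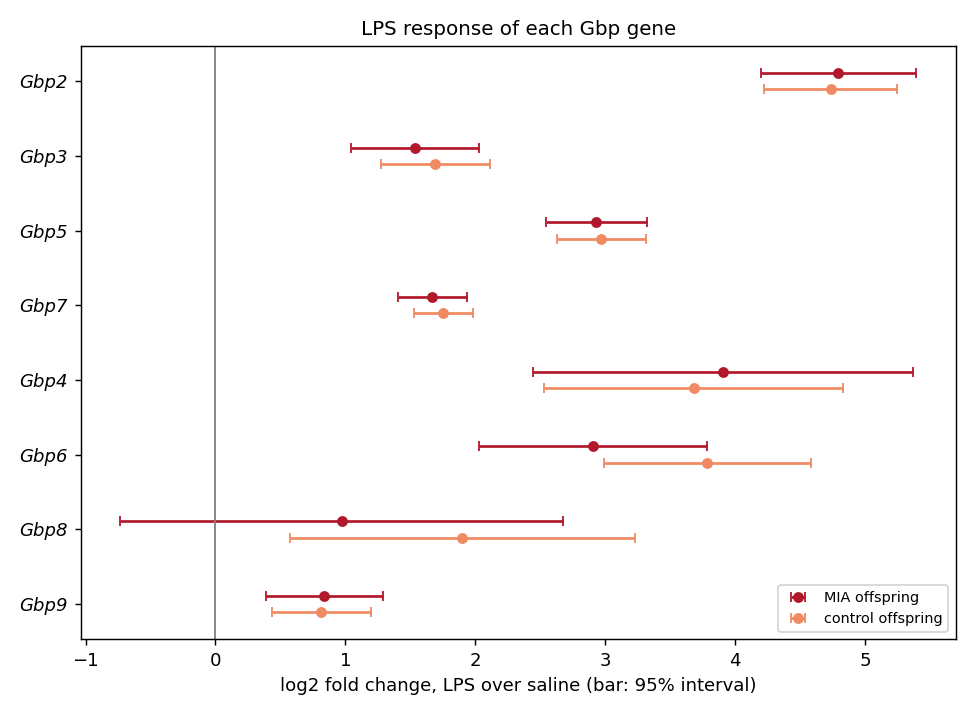
Log2 fold change of each Gbp gene, LPS over saline (x axis), in MIA (dark red) and control offspring (orange), with 95% intervals from the edgeR fit. Gbp2 lies highest at 4.79 and 4.74, Gbp9 near 0.8 in both, and the Gbp8 interval of MIA offspring crosses 0.

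Because the members responded unequally, the make-up of the family's transcripts changed. Levels of different genes were compared per kilobase of annotated exon (CPM per kb). All exons annotated for a gene were counted, whether expressed or not, so the orders and shares rest on those lengths. Without that division Gbp5 stood above Gbp3 after saline, at 13.8 against 9.14 CPM in MIA offspring and 12.9 against 8.54 CPM in control offspring. After LPS the order in MIA offspring was Gbp7 (20.6 CPM per kb), Gbp2 (17.6), Gbp5 (15.9), Gbp3 (8.12), Gbp9 (6.78), Gbp6 (1.16), Gbp4 (0.582) and Gbp8 (0.168). In control offspring the LPS order was the same, with Gbp7 (25.6 CPM per kb), Gbp2 (20.5), Gbp5 (15.3), Gbp3 (8.47), Gbp9 (6.58), Gbp6 (1.30), Gbp4 (1.03) and Gbp8 (0.404). The saline order put Gbp9 and Gbp3 ahead of Gbp5 and Gbp2 in both maternal groups. In MIA offspring it was Gbp7 (6.48 CPM per kb), Gbp9 (3.79), Gbp3 (2.80), Gbp5 (2.08), Gbp2 (0.631), Gbp6 (0.152), Gbp8 (0.0803) and Gbp4 (0.0388). In control offspring it was Gbp7 (7.57 CPM per kb), Gbp9 (3.74), Gbp3 (2.61), Gbp5 (1.94), Gbp2 (0.765), Gbp8 (0.104), Gbp6 (0.0940) and Gbp4 (0.0752). The library ranges of neighbours in these orders overlapped except in the following pairs. In both maternal groups Gbp5 stood clear of Gbp3 and Gbp9 of Gbp6 after LPS, and Gbp7 of Gbp9 and Gbp2 of the gene after it after saline. In MIA offspring Gbp7 also stood clear of Gbp2 after LPS, and Gbp5 of Gbp2 after saline.

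Summed over the 8 members, the level was 339 ± 16.7 CPM in MIA LPS (SD, n = 3), 375 ± 46.6 CPM in control LPS (SD, n = 5), 82.0 ± 7.73 CPM in MIA saline (SD, n = 5) and 86.7 ± 4.32 CPM in control saline (SD, n = 6). Gbp2 made up 24.9% of the summed CPM per kb in MIA LPS and 25.8% in control LPS, against 3.90% in MIA saline and 4.51% in control saline. Gbp9 made up 9.45% in MIA LPS and 8.18% in control LPS, against 23.8% in MIA saline and 22.3% in control saline. Gbp7, the largest contributor in every group, also had a smaller share after LPS, with 29.2% in MIA LPS and 32.7% in control LPS, against 40.2% in MIA saline and 44.8% in control saline. These shares rest on CPM that the LPS comparison already used and are given as a description.

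**Figure D3:**
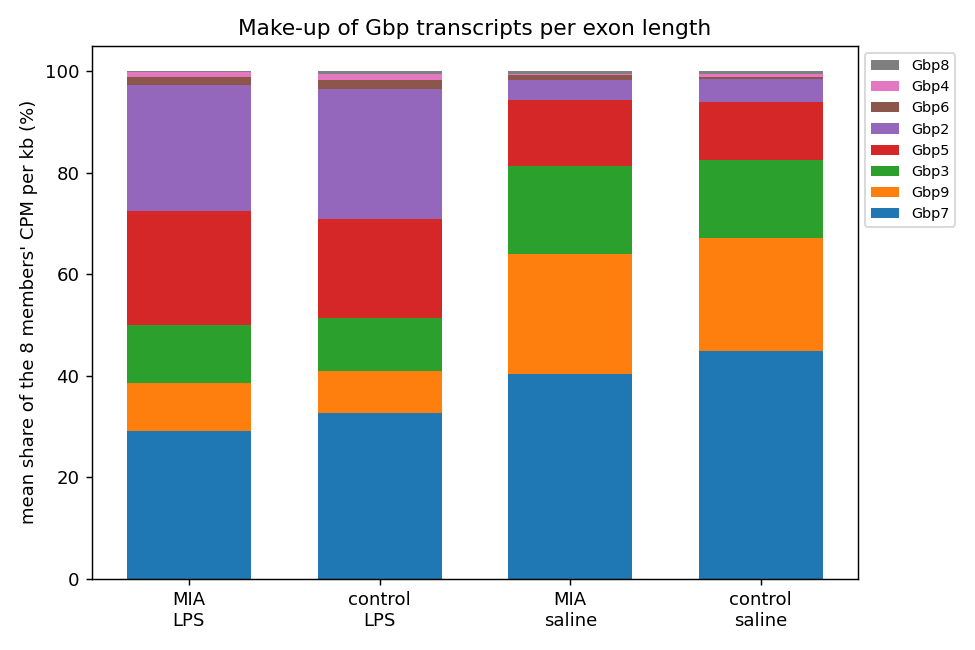
Mean share of each Gbp gene in the summed CPM per kb of the 8 genes (y axis, percent) in each group (x axis). Gbp2 fills 24.9% and 25.8% of the LPS bars, against 3.90% and 4.51% of the saline bars.

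MIA was not followed by a called difference in any member. After LPS, 0 of 8 members were called between MIA and control offspring (0.0% of all genes called; 1 member and 825 of all genes had an unadjusted p under 0.05), and after saline 0 of 8 (0.0% called; 0 members and 415 genes unadjusted). The difference between the LPS responses of MIA and control offspring was called for 0 of 8 (0.0% called; 0 members and 491 genes unadjusted). DESeq2 and limma-voom also called 0 members in these 3 comparisons, and over all genes DESeq2 called 3 higher and 3 lower after saline. The intervals show how much these numbers of mice could resolve. For the abundant members the 95% interval of the MIA over control log2 fold change after LPS was -0.73 to 0.29 for Gbp2, -0.33 to 0.44 for Gbp5, -0.55 to 0.43 for Gbp3 and -0.41 to 0.50 for Gbp9. For the scarce ones it was wider, at -2.06 to 0.43 for Gbp4, -0.97 to 0.65 for Gbp6 and -2.92 to 0.36 for Gbp8.

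Gbp7 came closest to a difference. After LPS all 3 MIA libraries (119.6, 112 and 116 CPM) lay below all 5 control libraries (127 to 156 CPM), as was so for 1.4% of all genes tested, with a log2 fold change of -0.31 ± 0.13, a 95% interval of -0.58 to -0.035 and an unadjusted p of 0.0288 (edgeR adjusted p = 0.866). After saline the groups overlapped, with a mean of 36.4 ± 5.68 CPM in MIA offspring (SD, n = 5) and 42.5 ± 4.29 CPM in control offspring (SD, n = 6). The log2 fold change there was -0.22 ± 0.11 (edgeR adjusted p = 1.00, 95% interval -0.45 to 0.0065). The response of Gbp7 to LPS differed by -0.085 ± 0.17 between MIA and control offspring (edgeR adjusted p = 1.00). The difference after LPS did not pass the test across all genes, and the value after LPS shares its libraries with the difference of responses.

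**Figure D4:**
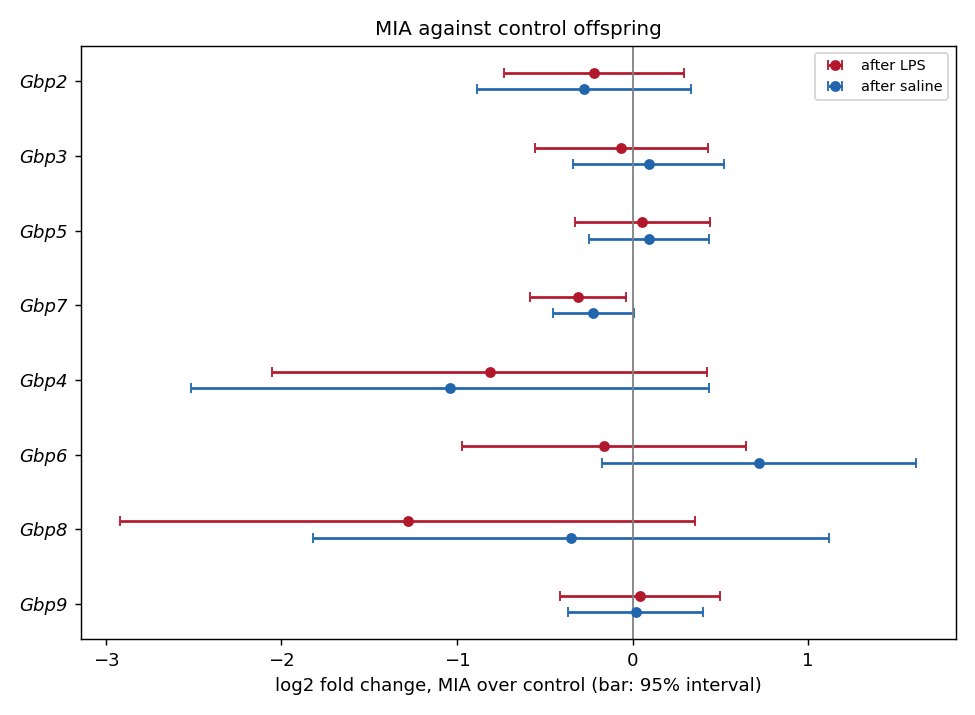
Log2 fold change of each Gbp gene, MIA over control (x axis), after LPS (red) and after saline (blue), with unadjusted 95% intervals from the edgeR fit. The Gbp7 interval after LPS, -0.58 to -0.035, is the one that does not reach 0, and none of the 16 values passed the adjusted threshold.

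Libraries of the same group differed, and Gbp3, Gbp4 and Gbp9 were high in the same 3 LPS libraries. Relative to the mean of its own LPS group, MIA LPS replicate 2 was higher by 0.51 (Gbp3), 1.04 (Gbp4) and 0.56 (Gbp9) in log2 CPM. Control LPS replicate 2 was higher by 0.39, 0.92 and 0.47 for these genes, and control LPS replicate 5 by 0.52, 0.64 and 0.38. Gbp2, Gbp5 and Gbp7 deviated in those 3 libraries by -0.14 to 0.30. Gbp6 was higher there by 0.24, 0.18 and 0.10, but stood highest in control LPS replicate 3 (0.47). Gbp8, with few counts, deviated by -0.76 in MIA LPS replicate 2 and by 0.42 and 1.12 in control LPS replicates 2 and 5. Over 19 libraries, deviations from the group means correlated at Pearson r = 0.75 between Gbp3 and Gbp4, 0.53 between Gbp3 and Gbp9 and 0.41 between Gbp4 and Gbp9. The other pairs of members ran from -0.27 (Gbp6 and Gbp8) to 0.46 (Gbp5 and Gbp8). These correlations are descriptions over libraries whose depth and make-up the genes share. Gbp4 and Gbp9 have overlapping exons, while Gbp3 lies on another chromosome. The spread within groups was smallest for Gbp7 (SD of 0.16 in log2 CPM) and largest for Gbp4 (0.91).

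MIA LPS replicate 2 also had the highest summed astrocyte markers (225 CPM) and oligodendrocyte markers (89.4 CPM) of the batch 1 LPS libraries, and the lowest summed monocyte markers (37.1 CPM). Control LPS replicate 2 had the lowest monocyte sum of its group (39.3 CPM), but its astrocyte (111 CPM) and oligodendrocyte (34.0 CPM) sums were not high in that group. Control LPS replicate 5 was at no extreme of its group in these sums, with 66.4 CPM of monocyte, 124 CPM of astrocyte and 34.5 CPM of oligodendrocyte markers. Summed microglial markers were lowest in the same 3 libraries among the batch 1 LPS libraries. They were 4922 CPM in MIA LPS replicate 2, 5383 and 5412 CPM in control LPS replicates 2 and 5, and next 5469 CPM in MIA LPS replicate 3. Both replicates 2 also had the lowest summed border-associated macrophage markers of their groups (11.2 and 16.8 CPM). The part of cell types in these deviations was not tested. Outside the family, the genes whose deviations followed the mean deviation of the 8 members most closely, among 7355 genes whose log2 CPM averaged 3 or more, were Kat6b (r = 0.84), Phactr2 (0.79), Maml2 (0.77), Mical3 (0.76) and Spg11 (0.76), over 19 libraries. Picking the highest of so many correlations favours large values. The mean itself followed Gbp4 most (r = 0.75) and Gbp6 and Gbp7 least (0.16 and 0.18). In control offspring the LPS log2 fold changes of these 5 genes ran from -1.09 (Mical3) to -0.10 (Spg11), while the members rose.

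**Figure D5:**
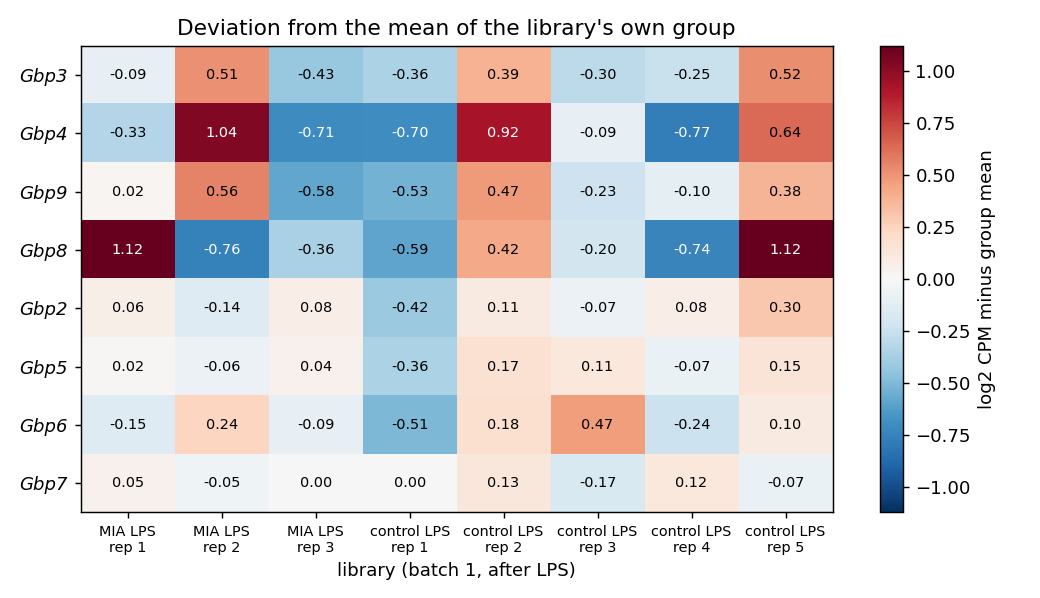
Deviation of each Gbp gene (rows) from the mean log2 CPM of its own group in every batch 1 LPS library (columns), with the value in each cell. Gbp3, Gbp4 and Gbp9 are high together in MIA LPS replicate 2 and control LPS replicates 2 and 5.

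Genes around the family in its pathway were counted by list, beside the 20.8% of all genes called higher in MIA offspring and 23.3% in control offspring, and the 39.1% and 44.6% called in either direction. Of 19 tested genes for interferons, their receptors and signal transducers, 7 rose in MIA offspring and 8 in control offspring, and 0 fell, with a median log2 fold change of 0.20 in MIA offspring and 0.26 in control offspring. The largest values in control offspring were those of Irf7, a transcription factor of antiviral responses (3.45 ± 0.27, edgeR adjusted p = 2.16e-10), and Usp18, which dampens interferon receptor signalling (3.19 ± 0.33, edgeR adjusted p = 5.54e-08). Next came Batf2, a partner of Irf1 (2.62 ± 0.70, edgeR adjusted p = 3.30e-03), and Stat2, a signal transducer of interferon receptors (2.44 ± 0.19, edgeR adjusted p = 2.13e-10). Among the ligands, Ifng, which encodes interferon gamma, had 0 counts in every group, which allows up to 0.0735 CPM in MIA LPS and 0.0416 CPM in control LPS (3 counts over the group, counting error only). Ifnb1, which encodes interferon beta, summed to 9 counts in MIA LPS and 18 in control LPS, against 6 in MIA saline and 0 in control saline, and was not tested.

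The immunity-related GTPases, which act with guanylate-binding proteins on parasite vacuoles, rose alongside. Of 9 genes tested, 7 rose and 0 fell in each maternal group, with a median of 2.00 in MIA offspring and 1.99 in control offspring. The list counts Gvin1, a very large inducible GTPase outside that family, which is among those that rose. In control offspring Iigp1 rose by 4.08 ± 0.65 (edgeR adjusted p = 3.76e-05), Gm12250 by 2.97 ± 0.26 (edgeR adjusted p = 1.16e-09), Tgtp2 by 2.91 ± 0.33 (edgeR adjusted p = 1.29e-07) and Irgm1 by 2.00 ± 0.21 (edgeR adjusted p = 4.88e-08). Members of this list have close copies, such as Tgtp1 and Tgtp2, so their single values are uncertain.

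The other partners of the family moved in both directions. The ATG8 list held 11 genes, those of the conjugation machinery that directs these GTPases to vacuoles together with Sqstm1. Of these, 2 rose and 1 fell in MIA offspring (median -0.11), and 1 rose and 2 fell in control offspring (median -0.10). In control offspring Map1lc3a fell by 0.98 and Gabarapl2 by 0.89 on the log2 scale (edgeR adjusted p = 4.10e-04 and 5.23e-06), and the autophagy receptor gene Sqstm1 rose by 0.48 (edgeR adjusted p = 5.12e-03). Of 10 inflammasome genes, 3 rose and 1 fell in MIA offspring, and 3 rose and 2 fell in control offspring (medians 0.26 in MIA offspring and 0.23 in control offspring), which is near the share of all genes called in either direction. In control offspring Il1b rose by 3.85 ± 0.45 and Nlrp3 by 1.86 ± 0.19 (edgeR adjusted p = 2.17e-06 and 1.07e-08), while the sensor gene Nlrp1b and the NLRP3 partner gene Nek7 changed by -0.99 ± 0.16 and -0.68 ± 0.20 (edgeR adjusted p = 9.62e-06 and 8.45e-03). Casp4, which encodes caspase-11, was not called, at 0.24 ± 0.19 (edgeR adjusted p = 0.330). The prenylation list held 6 genes, for subunits of the enzymes that attach the lipid and for later steps. Of these, 3 rose and 1 fell in MIA offspring (median 0.55), and 2 rose and 1 fell in control offspring (median 0.16). Those that rose (Rce1, Zmpste24 and, in MIA offspring, Icmt) act after the lipid is attached. Among the subunits that attach it, Fnta fell in both maternal groups, and Fntb and Pggt1b were not called. In control offspring Rce1 changed by 0.92 ± 0.21, Fnta by -0.70 ± 0.14 and Zmpste24 by 0.59 ± 0.11 (edgeR adjusted p = 6.56e-04, 1.73e-04 and 8.47e-05). No gene of these lists was called between MIA and control offspring by edgeR, as for all genes tested (0.0%).

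The remaining family rows gave little signal. Gbp2b, the mouse counterpart of human GBP1, had 0 counts in all 21 libraries, which allows up to 0.0735 CPM in MIA LPS and 0.0416 CPM in control LPS. Gbp11 summed to 4 counts over all libraries. Gbp10 had 0.423, 0.723 and 0.462 CPM in MIA LPS libraries, against 0.108, 0.0601, 0.208, 0.0670 and 0 CPM in control LPS libraries, from 22.41 and 5.13 summed estimated counts. Gbp10 shares 73.5% of its 100-base stretches with other genes and did not pass the filter, so it was not tested. Gm43302, which shares exons with both Gbp6 and Gbp10, had 18.83 counts in MIA LPS, all in 1 library, and 4.4 in control LPS, also in 1 library. With Gbp6, Gbp10 and Gm43302 summed, the MIA over control value of Gbp6 after LPS was 0.021, against -0.16 for Gbp6 alone, and neither was called.

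Markers of other cells moved with LPS as well. Summed monocyte markers (8 genes) ran from 37.1 to 62.6 CPM in MIA LPS, against 3.77 to 6.59 CPM in MIA saline, and from 39.3 to 81.6 CPM in control LPS, against 4.26 to 8.22 CPM in control saline. Of 7 tested monocyte markers 5 rose and 1 fell in MIA offspring, and 6 rose and 1 fell in control offspring, with Fn1 and Ly6c2 among those that rose and Ccr2 the one that fell. Ly6c2, Chil3 and F10 were at 0 in MIA saline. Summed neutrophil markers (10 genes) ran from 99.4 to 194 CPM in MIA LPS, against 172 to 196 CPM in MIA saline, and from 112 to 174 CPM in control LPS, against 157 to 233 CPM in control saline. Csf3r alone averaged 57.4 CPM in MIA LPS, against 184 CPM in MIA saline, and 71.0 CPM in control LPS, against 180 CPM in control saline. The saline sums were thus mostly Csf3r, and the sums do not show the rise of other markers in the list. Of 9 tested neutrophil markers 8 rose in MIA offspring and 6 in control offspring, while Csf3r fell in both. Mmp8 and Retnlg were at 0 in both saline groups, and S100a9, Ly6g, Camp, Ltf and Cxcr2 also in MIA saline. Of 10 T and NK cell markers, 9 were at 0 in MIA LPS, control LPS and control saline and 8 in MIA saline. Microglial markers (10 genes) summed to 4922 to 7233 CPM in MIA LPS, against 13056 to 15625 CPM in MIA saline, and to 5383 to 6838 CPM in control LPS, against 11894 to 15962 CPM in control saline, and 7 of the 10 fell in each maternal group. Among the genes of the sorting markers, P2ry12 averaged 203 CPM in MIA LPS, against 2050 CPM in MIA saline. In control offspring P2ry12 averaged 188 CPM after LPS, against 1974 CPM after saline. Itgam (CD11b) and Ptprc (CD45) were not called in either maternal group. The bearing of this on which cells were collected was not tested. Summed astrocyte markers (6 genes) ran from 129.7 to 225 CPM in MIA LPS, against 168 to 257 CPM in MIA saline, and from 108 to 149 CPM in control LPS, against 173 to 267 CPM in control saline. Of the 6, Gfap rose by 3.07 in MIA offspring and 3.21 in control offspring (edgeR adjusted p = 2.31e-03 and 4.81e-04), and Slc1a3 fell by 0.86 and 1.03 on the log2 scale (edgeR adjusted p = 2.52e-04 and 1.24e-06). Summed markers of border-associated macrophages (7 genes) ran from 11.2 to 35.1 CPM in MIA LPS, against 14.4 to 34.3 CPM in MIA saline, and from 16.8 to 46.4 CPM in control LPS, against 20.7 to 57.3 CPM in control saline. Of 6 tested, F13a1 rose in both maternal groups, Mrc1 fell in both, and Lyve1, at 0 in MIA LPS, fell in MIA offspring. Summed endothelial and mural markers (7 genes) ran from 20.1 to 23.2 CPM in MIA LPS, against 17.4 to 23.6 CPM in MIA saline, and from 14.6 to 30.2 CPM in control LPS, against 19.2 to 26.9 CPM in control saline, and of 6 tested Ly6a rose and Pecam1 fell in both maternal groups. Of 6 tested oligodendrocyte markers, Cnp fell in control offspring. The part of these cell types in the Gbp values was not tested.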

How the data were processed

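Polyadenylated RNA was sequenced from 21 libraries made from 5 ng of RNA by a modified Smart-Seq2 protocol with 9 PCR cycles, per the labels' protocols. The authors deposited estimated counts per gene, not normalized, and the submitters' processing notes name STAR, RSEM and DESeq2 with no version. The genome build, annotation and strand setting were not given in the sources. Of the deposited estimated counts 6.27% were not whole, and all were rounded. Blank lines were dropped. GENCODE M21 gave symbols for 55141 of 55487 identifiers.

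Total counts per library ran from 13.0 to 17.1 M (1e+06 counts) in MIA LPS, 9.85 to 18.1 M in control LPS, 10.2 to 15.7 M in MIA saline and 11.9 to 19.0 M in control saline, and 1 ribosomal RNA gene, CT010467.1, took 43.0% to 53.8% of the counts of these libraries. The protocol names no molecular identifiers, so floors of 3 counts cover counting error only. Every pair of replicates differed beyond sampling noise (chi-square over degrees of freedom of 9.58 or more). Litters are not named in the labels, so p-values reflect the spread between these samples only. The second number of the ID label may mark one, which no source states, and by it the 5 MIA saline libraries carry 3 numbers, the same 3 as the MIA LPS libraries, so they may not be independent.

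Counts were fitted with the quasi-likelihood method of edgeR (version 4.0.16), run in R 4.3.3 with TMM scaling and the robust option, on 20 libraries with a mean for each of the 4 groups and a batch term, after edgeR's expression filter (minimum count 10, minimum total 15). P-values were adjusted by Benjamini-Hochberg over all 14741 genes. The batch term takes up the lone batch 2 library. Group values use TMM-scaled CPM, and intervals are at 95%. Alternatives were other scalings, no filter, unrounded counts, DESeq2 1.42.0, limma-voom with sample weights (limma 3.58.1), no batch term, other choices of libraries, 2 blocks and each replicate left out. Sequence sharing and motifs were counted on GENCODE transcripts and RefSeq promoters. Named genes were the 8 members, Gbp2b, Gbp10 and Gbp11, up to 4 called genes of each list with the largest absolute log2 fold change in control offspring, and the 5 genes closest in deviation. Casp4, Icmt, Fntb, Pggt1b, Gvin1, Ifng, Ifnb1, Gm43302 and marker genes were named after their values were seen. The members and lists were chosen with earlier results of these data known.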

Additional observations from a re-analysis of the deposited data

Results flagged for a closer look

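In MIA LPS replicate 4, the only library of batch 2 and outside the group values, several members stood above every control saline library. The levels were 144 CPM for Gbp2 (at most 3.54 in control saline), 58.8 for Gbp3 (at most 11.6), 20.8 for Gbp5 (at most 16.9), 14.2 for Gbp6 (at most 1.11) and 74.7 for Gbp7 (at most 48.3). Gbp2, Gbp3 and Gbp6 were higher there than in any batch 1 LPS library, and Gbp5 and Gbp7 lower than in any. Gbp9 stood at 9.48 CPM, and Gbp4 and Gbp8 at 0. This library had counts for 12285 genes, against 18035 to 19293 in the other MIA LPS libraries, and summed neutrophil markers of 413 CPM. The part of batch in these values was not tested.

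Among control saline libraries, Gbp4 was 1.86 CPM in replicate 1, far from the next highest at 0.525 CPM. It was 1 of 24 member and group combinations examined, and chance flags about 1 in 20.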

How the results depend on the processing

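Counts of called members ranged from 6 to 7 in MIA offspring and 7 to 8 in control offspring over up to 32 alternatives, and stayed 0 in the other 3 comparisons. The call of Gbp8 in control offspring was lost with the second number of the ID label as a block (2.09, edgeR adjusted p = 0.0525) and without control LPS replicate 5 (1.49, edgeR adjusted p = 0.0789). The call of Gbp9 in MIA offspring was lost with no batch term (0.55, edgeR adjusted p = 0.138) and without MIA LPS replicate 2 (0.51, edgeR adjusted p = 0.0668). Signs turned only among values that were not called. For MIA over control after LPS, with no batch term the values were 0.42 (Gbp2), 0.32 (Gbp3), -0.26 (Gbp5), 0.17 (Gbp6) and -0.24 (Gbp9), limma-voom gave -0.22 for Gbp9, and Gbp6 summed with Gbp10 and Gm43302, an alternative chosen after seeing the data, gave 0.021. After saline limma-voom gave -0.055 for Gbp9. For the difference of responses, limma-voom gave -0.16 (Gbp2), -0.61 (Gbp4) and -0.16 (Gbp9), and no batch term gave 0.22 (Gbp3), -0.19 (Gbp4) and -0.26 (Gbp9). Without the batch term, the batch 2 library joins the MIA LPS mean. Leaving out each replicate, the ranges that crossed 0 were -0.045 to 1.71 for the Gbp8 response in MIA offspring. After saline they were -1.09 to 0.0092 (Gbp8) and -0.043 to 0.096 (Gbp9). After LPS they were -0.37 to 0.13 (Gbp3), -0.015 to 0.11 (Gbp5) and -0.28 to 0.29 (Gbp9). For the difference of responses they were -0.20 to 0.25 (Gbp2), -0.46 to 0.040 (Gbp3), -0.67 to 0.55 (Gbp4), -0.13 to 0.050 (Gbp5) and -0.30 to 0.27 (Gbp9). The cause was not tested.

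Libraries of different groups with the same replicate number correlated at r from -0.14 to 0.22 over 24 pairs, against -0.21 to 0.17 over 101 other pairs. These ranges cannot show whether such libraries share more than a number. Libraries with the same ID number in different groups correlated at r from -0.018 to 0.20 over 10 pairs. With the replicate block the counts were 7 in MIA offspring, 8 in control offspring and 0 in the 3 other comparisons, and the difference of responses was 0.10 for Gbp5 and -0.093 for Gbp9. With the ID number as a block it was -0.099 for Gbp2 and -0.065 for Gbp9. Depth limits Gbp8, which had 3 to 14 counts per library in MIA LPS and 0 to 11 in MIA saline.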
